A study of Mus musculus with 2 samples.

Results

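The miR-29 family of the mouse comprises 4 microRNA genes, Mir29a, Mir29b-1, Mir29b-2 and Mir29c, which were picked by gene symbol from the 2202 microRNA genes of the count tables. The libraries were microRNA sequencing libraries of myocytes obtained by keeping C2C12 cells under differentiation for 72 h. C2C12 is a myoblast line from crush-injured thigh muscle of C3H mice, so all samples share 1 line and 1 genetic background, and each culture can hold cells that have not fused. The only group consisted of 2 biological replicates with separate biosamples, without any treatment or genotype label. Nothing in the labels says whether the cultures were differentiated apart from each other, so the SDs below measure the spread between these libraries, which may be partly technical. No undifferentiated cells were analysed here, and no comparison between conditions was made.

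MicroRNAs are cut from a hairpin precursor as 2 arms, 5p and 3p, and the loaded arm pairs with messenger RNAs mainly through its seed, bases 2 to 8. The miR-29 family is known for lowering messenger RNAs of the extracellular matrix, among them collagens, elastin and fibrillins, and of the DNA methyltransferases Dnmt3a and Dnmt3b. In mouse myoblasts NF-kappaB and the transcription factor YY1 repress miR-29, miR-29 in turn targets Yy1, and TGF-beta signalling through Smad3 lowers it.

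The mature sequences, found for all 4 genes and credited to RefSeq (GRCm38.p6), are shown because their likeness decides which reads can be assigned to which gene. Capitals mark the seed. The 3p arms read as follows.
mmu-miR-29a-3p: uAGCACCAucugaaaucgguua
mmu-miR-29b-3p: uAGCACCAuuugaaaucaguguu
mmu-miR-29c-3p: uAGCACCAuuugaaaucgguua

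The 3p arms of all 4 genes carried the seed AGCACCA, and none of the other genes with a mature sequence in the RefSeq table carried it. Counted from the 5′ end, miR-29a-3p and miR-29c-3p differed at 1 of 22 positions, C10U. From miR-29c-3p to miR-29b-3p the first 17 bases were identical and 3 of 22 positions differed (G18A, U21G and A22U). MiR-29b-3p ends with the hexamer AGUGUU at bases 18 to 23, a sequence known from human cells to direct miR-29b to the nucleus. It was absent from miR-29a-3p and miR-29c-3p, and 14 of 1738 mature entries (0.806%) contained it on the strand of the microRNA, 3 of them at their end (both miR-29b-3p entries and miR-92b-5p).

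The 5p arms differed more, and each gene had its own.
mmu-miR-29a-5p: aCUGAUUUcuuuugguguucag
mmu-miR-29b-1-5p: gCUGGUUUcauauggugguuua
mmu-miR-29b-2-5p: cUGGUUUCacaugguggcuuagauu
mmu-miR-29c-5p: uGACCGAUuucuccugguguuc

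The 5p seeds were all different. The longest stretch common to the 5p arms of Mir29b-1 and Mir29b-2 had 9 bases. Of the 5p seeds, that of miR-29b-2-5p recurred in 1 gene outside the family, Mir6338, which had 0 counts in both libraries. With a count of 0, levels of up to 0.396 CPM (replicate 1) or 0.304 CPM (replicate 2) remain possible, the worth of 3 counts. CPM stands for counts per 1000000 sense-strand reads of microRNA genes. Intervals and such limits cover counting error only, since PCR copies could not be told from separate molecules.

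The genes form 2 clusters (mm10 build, GENCODE M21, 1-based). Mir29b-1 (ENSMUSG00000065604.2; chromosome 6, 31063023 to 31063093, 71 bases) and Mir29a (ENSMUSG00000065610.1; chromosome 6, 31062660 to 31062747, 88 bases) lie on the minus strand with 275 bases between them. No annotated transcript spans both. The lincRNA gene Gm27019 overlaps Mir29b-1 by 2 bases on the same strand, and the nearest protein-coding gene on the lower side, Klf14, ends 103581 bases away. Mir29b-2 (ENSMUSG00000065412.3; chromosome 1, 195037040 to 195037120, 81 bases) and Mir29c (ENSMUSG00000065548.1; chromosome 1, 195037547 to 195037634, 88 bases) lie on the plus strand with 426 bases between them. Both lie wholly in an exon of a retained-intron transcript of the noncoding gene A330023F24Rik, and both overlap, on the opposite strand, an untranslated part of the last exon of Cd46, the gene of a complement regulator. In each cluster the Mir29b gene comes first in the direction of transcription.

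Mir29a had by far the most uniquely mapped reads of the family. It had 46503 counts in replicate 1 and 44286 in replicate 2. These were 6134 and 4489 CPM, with a mean of 5311 ± 1163 CPM (SD, n = 2). Its rank by CPM among all genes was 25 in replicate 1 and 22 in replicate 2. Mir29c, whose 3p arm differs from that of Mir29a by a single base, had 1954 counts in replicate 1 and 1383 in replicate 2. These were 258 and 140 CPM, with a mean of 199 ± 83.1 CPM (SD, n = 2), at ranks 111 and 117. Mir29b-2 had 61 and 103 counts in the replicates, 8.05 and 10.4 CPM, with a mean of 9.24 ± 1.69 CPM (SD, n = 2). Mir29b-1, the partner of Mir29a in the chromosome 6 cluster, had 47 and 62 counts, 6.20 and 6.28 CPM, with a mean of 6.24 ± 0.0603 CPM (SD, n = 2). All 4 genes passed the minimum of 10 counts in each library, as did 314 of 2202 genes. The order Mir29a, Mir29c, Mir29b-2, Mir29b-1 was the same in both libraries. The values of neighbouring genes in this order did not overlap between libraries. In replicate 1, though, the exact intervals for counting error of Mir29b-2 (6.15 to 10.3 CPM) and Mir29b-1 (4.56 to 8.24 CPM) overlapped. In replicate 2 they did not (8.52 to 12.7 and 4.82 to 8.06 CPM).

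**Figure D1:**
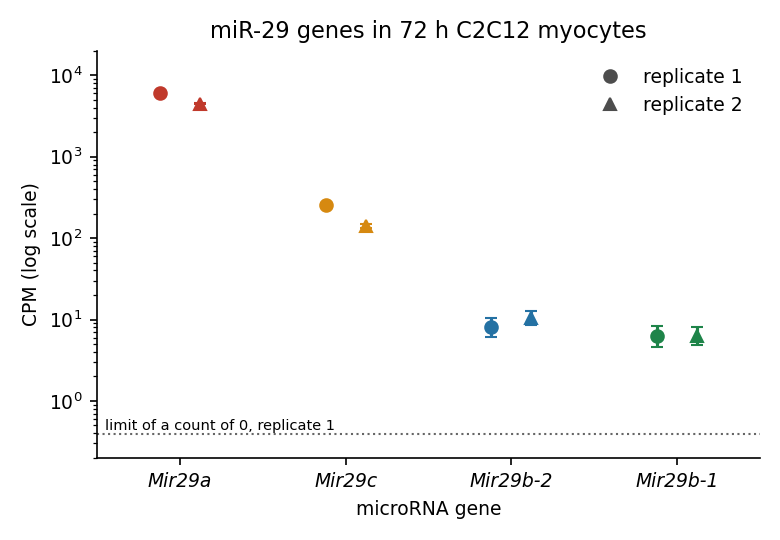
Level of each miR-29 gene in CPM on a log axis, replicate 1 as circles and replicate 2 as triangles, with exact Clopper-Pearson intervals for counting error. Mir29a lies between 4489 and 6134 CPM, Mir29c between 140 and 258 CPM, and both Mir29b genes between 6.20 and 10.4 CPM, above the limit of a count of 0.

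The family as a whole took 0.641% of the assigned counts in replicate 1 (exact Clopper-Pearson 95% interval 0.635% to 0.646%) and 0.465% in replicate 2 (0.460% to 0.469%), a mean of 0.553% ± 0.124 (SD, n = 2). The difference between the replicates was wider than both counting intervals. Mir29a made up 95.8% of the family's counts in replicate 1 and 96.6% in replicate 2. Mir29c made up 4.02% and 3.02%. Both Mir29b genes were small fractions, with 0.0968% and 0.135% for Mir29b-1 and 0.126% and 0.225% for Mir29b-2. For scale, Mir206, the most abundant microRNA gene of these myocytes, had 53.2 times the family's counts in replicate 1 and 89.7 times in replicate 2. All these family values are of uniquely mapped reads. Reads of miR-29b-3p that fit both Mir29b genes are left out of them.

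The low counts of the Mir29b genes have to be read with their sequence. Only reads that map to 1 place were read as assigned to genes, and reads that fit more than 1 place stand in the multi-mapped entry, 3378438 reads (22.01% of all reads) in replicate 1 and 3295854 (17.9%) in replicate 2. That entry is not divided among microRNAs, and it was 69.6 and 71.9 times the family's assigned counts. Mir29b-1 and Mir29b-2 share a stretch of 25 bases, shown with the 23 bases of the 3p arm in capitals because it covers that arm whole.
Mir29b-1 and Mir29b-2: ucUAGCACCAUUUGAAAUCAGUGUU

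A read of miR-29b-3p as annotated therefore fits both genes. The level of miR-29b-3p cannot be taken from these counts, and the Mir29b values are of uniquely mapped reads alone. Which arm the 108 and 165 uniquely mapped reads of the Mir29b genes came from was not tested, since the tables do not separate arms. Mir29b-1 also shares 22 bases with Mir29c, 17 of them in the 3p arm and the other 5 before it. The longest stretch common to Mir29b-2 and Mir29c had 19 bases. Mir29a shared at most 14 bases with any other member, and no stretch of 20 bases, nor of 18, with any annotated microRNA hairpin. In comparison, 80 of the 314 detected genes (25.5%) shared 20 bases with another hairpin. The counts of Mir29b-1, Mir29b-2 and Mir29c are uncertain by this criterion, and that of Mir29a is not. For Mir29c this concerns shifted or shorter reads, since the 22 bases of its annotated 3p arm were found in no other annotated hairpin. The search covered exact matches among annotated microRNA hairpins, not the whole genome.

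**Figure D2:**
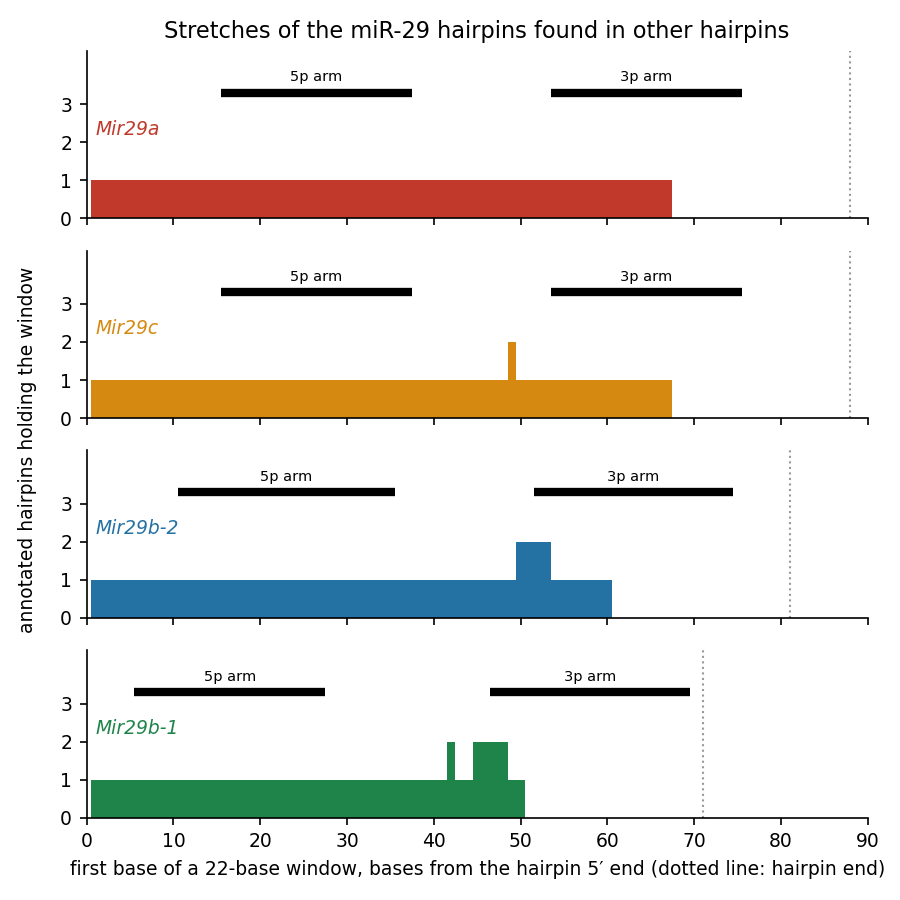
For each miR-29 hairpin, the number of annotated mouse microRNA hairpins (vertical axis) that hold the 22-base window starting at each base from the hairpin's 5′ end (horizontal axis); black bars mark the mature arms and the dotted line the end of the hairpin. All 67 windows of Mir29a were found in 1 hairpin alone, whereas 5 of 50 windows of Mir29b-1, 4 of 60 of Mir29b-2 and 1 of 67 of Mir29c recurred, all of them starting near the first base of the 3p arm.

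Genes that encode an identical mature microRNA were looked up across the RefSeq table, 1018 of whose symbols are in the count tables. There were 92 genes with a mature sequence shared with another gene, of which 43 (46.7%) were detected, and 926 without one, of which 235 (25.4%) were detected. Among the detected genes the median level was 29.3 CPM with a shared sequence and 79.7 CPM without, whereas over all of these genes, detected or not, it was 1.23 CPM with and 0.132 CPM without. Of 38 pairs of genes with an identical mature sequence in that table, 18 had both genes detected. The summed levels of these 18 (means of the replicates) ran from 15.5 CPM for the Mir29b pair, through 27.5 CPM for Mir7-1 and Mir7-2 and 37.2 CPM for Mir199a-1 and Mir199a-2, to 3247 CPM for Mir24-1 and Mir24-2. The 7 pairs with 1 gene detected and the 13 with none were left out of this order. The table is not complete either, so the 18 are not all such pairs. Mir1a-1 and Mir1a-2, which are not among them, stood lower than the Mir29b genes in uniquely mapped reads, with 2.94 and 3.02 CPM. The pairs were set in order after the values were seen, as a description.

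**Figure D3:**
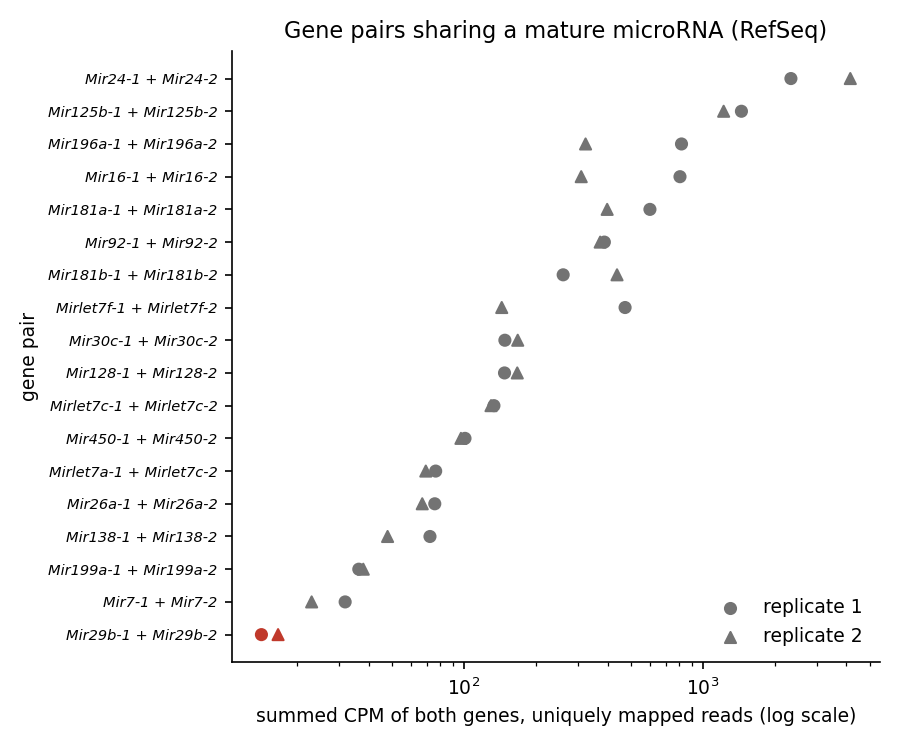
Summed CPM on a log axis of the 18 detected gene pairs with an identical mature microRNA in the RefSeq table, replicate 1 as circles and replicate 2 as triangles, pairs ordered by their mean. Pairs with a gene below 10 counts in either library and copies not in that table, such as the Mir1a genes, are left out. Among the pairs shown, the means run from 15.5 CPM for the Mir29b pair (red) to 3247 CPM for the Mir24 pair.

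The seed also allowed Mir29a to be set against the Mir29b copies in the way of other microRNAs. For 13 mature sequences encoded by 2 genes in the RefSeq table, another gene with the same seed and no shared mature sequence had counts as well, and at least 1 of the genes had a mean of 100 CPM. The count of the most abundant such gene was divided by the summed count of the copies. For Mir29a over the Mir29b copies this ratio was 431 in replicate 1 and 268 in replicate 2, against medians of 31.1 and 8.71 over the 13. The 13 were taken from 15 such sequences, without those that had a count of 0 for the copies or for the other gene. For miR-6967-5p the copies had 0 counts, against 58682 (replicate 1) and 78869 (replicate 2) for Mir149, which has the same seed. For comparison, Mirlet7b stood at 243 and 395 times the copies Mirlet7a-1 and Mirlet7c-2, which share a 3p arm. Mirlet7b was the numerator for other copies too, so the 13 are not independent. The Mir29b copies, with a summed mean of 15.5 CPM, met the minimum of 100 CPM only through Mir29a. A high ratio was thus partly built in. Reads that fit both copies of a pair stand outside the divisors, so the ratios are a description of uniquely mapped reads.

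Within the chromosome 6 cluster, Mir29a had 989 times the counts of Mir29b-1 in replicate 1 (exact interval 744 to 1347) and 714 times in replicate 2 (557 to 932). These intervals overlap. Within the chromosome 1 cluster, Mir29c had 32.0 times the counts of Mir29b-2 in replicate 1 (24.8 to 42.04) and 13.4 times in replicate 2 (11.0 to 16.6), and these intervals do not overlap. Per base of hairpin the log2 ratios were 9.64 and 9.17 for Mir29a over Mir29b-1 and 4.88 and 3.63 for Mir29c over Mir29b-2. How many reads fitted both Mir29b genes, and so stood outside these ratios, was not tested.

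Between the clusters, Mir29a had 23.8 times the counts of Mir29c in replicate 1 (22.7 to 24.9) and 32.02 times in replicate 2 (30.4 to 33.8). These hairpins have the same length, so the ratio per base is the same. The Mir29b copies were closer to each other, with 1.30 times as many counts for Mir29b-2 as for Mir29b-1 in replicate 1 (0.873 to 1.94) and 1.66 times in replicate 2 (1.20 to 2.31). In replicate 1 the interval includes equal counts. The corresponding log2 ratios per base of hairpin were 0.19 and 0.54. With 2 libraries, the order of the members is given as a description, without a test.

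**Figure D4:**
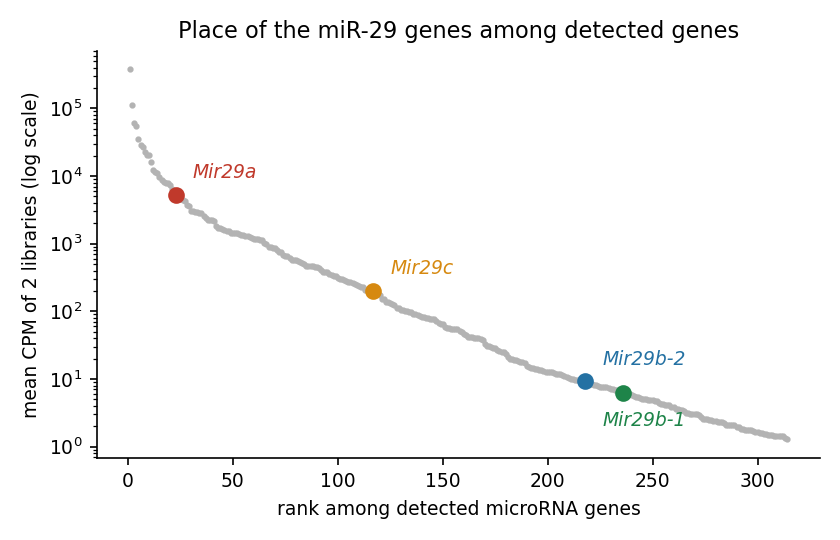
Mean CPM of the 2 libraries on a log axis against rank, for the 314 detected genes in grey and the miR-29 genes in colour. Mir29a stands at rank 23, Mir29c at rank 117, Mir29b-2 at rank 218 and Mir29b-1 at rank 236.

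The members' levels were also compared between the replicates. For every detected gene the split of its counts was set against the ratio of the totals (exact binomial test, two-sided), and p-values were adjusted by Benjamini-Hochberg over the 314 genes. The test compares these 2 libraries, not conditions, and it called 66.6% of the detected genes different, 38.2% with the higher value in replicate 1 and 28.3% with the higher value in replicate 2. Of the 4 members 2 were called, both higher in replicate 1, and against this background nothing about the family is read from that share. Mir29a was 1.37-fold higher in replicate 1 (log2 ratio 0.45, −log10 of the adjusted p in the exact binomial test 480). At this depth small differences pass, and 171 of the 314 genes (54.5%) had a larger absolute log2 ratio. Mir29c was 1.84-fold higher in replicate 1 (log2 ratio 0.88, adjusted p = 5.88e-68 in the exact binomial test), and 85 genes (27.1%) had a larger absolute log2 ratio.

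The Mir29b genes did not pass the test. Mir29b-2 had a log2 ratio of −0.38 (replicate 1 over replicate 2, adjusted p = 0.160 in the exact binomial test) and Mir29b-1 one of −0.02 (adjusted p = 1). Their counts, between 47 and 103, limit the precision of these ratios. Over the detected genes the median absolute log2 ratio was 0.51 (quartiles 0.26 and 0.93), and edgeR gave a biological coefficient of variation of 0.420. The ratio of Mir29a stood below that median and the ratio of Mir29c between the median and the upper quartile.

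**Figure D5:**
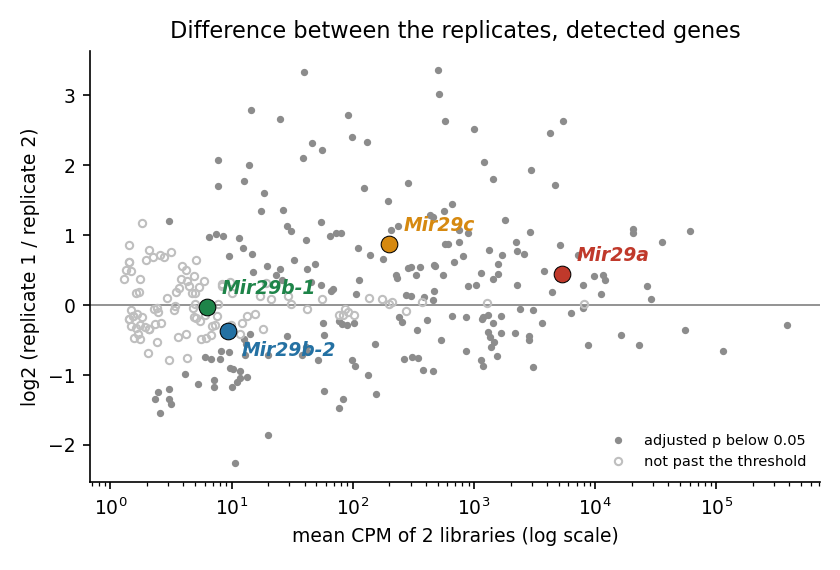
Log2 ratio of replicate 1 over replicate 2 against mean CPM on a log axis for the 314 detected genes, filled grey where the adjusted p of the exact binomial test was below 0.05 and open where it was not. Mir29a (0.45) and Mir29c (0.88) lie above 0, Mir29b-1 (−0.02) and Mir29b-2 (−0.38) at or below it.

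No read was counted on the strand opposite to any member in either library (limits as for Mir6338), although Cd46 lies opposite the chromosome 1 cluster. The either-strand counts of all 4 genes were the same as the sense counts. The genes nearest to each member in log2(CPM + 1) over the 2 libraries, by Euclidean distance, were Mir17 (distance 0.32) and Mir188 (0.40) for Mir29a and Mir574 (0.07) and Mir450b (0.14) for Mir29c. For Mir29b-2 they were Mir6994 (0.13) and Mir378b (0.19), and for Mir29b-1 Mir3097 (0.11) and Mir3075 (0.24). With 2 libraries this is a likeness of level only. Mir574 had 266 and 146 CPM, against 258 and 140 CPM for Mir29c.

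Among other microRNAs reported to be held down by YY1 in myoblasts, Mir206 and Mir133b were abundant, with 378817 ± 53707 and 12089 ± 2151 CPM (SD, n = 2 each). The Mir1a and Mir133a genes were rare among uniquely mapped reads, Mir1a-2 and Mir1a-1 with 3.02 ± 1.69 and 2.94 ± 0.138 CPM. These genes and Mir133b have near-identical copies, so their counts are uncertain. Of these 6 genes 4 were detected, beside 314 of 2202 genes in all. In the binomial test between the replicates, 2 were called higher in replicate 1 and 1 higher in replicate 2, beside 66.6% of all detected genes called. By uniquely mapped reads alone, Mir29a ranked below Mir133b and above the Mir1a and Mir133a genes. These counts cannot place it against the microRNAs that such copies encode.

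MicroRNAs that, like miR-29, are tied to matrix and fibrosis were all detected, 17 of 17, beside 314 of 2202 genes in all. The list was picked by name, so its detection and level are given as a description. Mir21a, which rises in fibrosis, had 60909 ± 30275 CPM, and Mir143, of smooth muscle and mesenchyme, had 35574 ± 15314 CPM. Mir30a, of a family that also acts on matrix genes, had 6354 ± 331 CPM, close to Mir29a. The list had a median of 891 CPM over its members' means, beside 53.1 CPM over all detected genes. Of its genes 8 were called higher in replicate 1, beside 38.2% of all detected genes, and 8 higher in replicate 2, beside 28.3%, with a median log2 ratio of −0.11 beside 0.09 over all detected genes. Of 3 further microRNAs that target DNA methyltransferases, Mir152 had 456 ± 203 CPM, Mir148b 178 ± 56.7 and Mir148a 42.2 ± 1.10 (SD, n = 2 each). Mir152 was called higher in replicate 2 and Mir148b higher in replicate 1.

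Depth and cell type markers bear on all these values. The libraries had 15349205 and 18450359 reads, of which 49.4% and 53.5% fell on microRNA genes in sense. All 6 muscle markers were detected and took 35.5% of the assigned counts in replicate 1 and 42.8% in replicate 2. Mir206 made up most of that sum, with 340841 CPM in replicate 1 and 416794 CPM in replicate 2. By gene, Mir133b, Mir499 and Mir1a-2 were called higher in replicate 1 and Mir206 and Mir208b higher in replicate 2. The 4 pluripotency markers were at 0 in both libraries. So were the neuronal markers Mir124a-1 and Mir9-1, but both have further copies in the genome, so a 0 among uniquely mapped reads sets no limit on their microRNAs. The liver marker Mir122 had 8 and 4 counts, and both epithelial markers together 33 and 19. The 3 blood markers summed to 101 CPM in replicate 1 and 181 in replicate 2. Most of this was Mir142, with 89.0 and 178 CPM, whereas Mir451a went the other way, with 11.9 and 3.65 CPM, and Mir223 had 2 counts and 1 count. The endothelial marker Mir126a had 217 and 42.9 CPM. Their part in the differences of Mir29a and Mir29c between the replicates was not tested. In such bulk libraries fewer cells with a microRNA and less of it per cell cannot be told apart.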

How the data were processed

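MicroRNA sequencing libraries of 2 biological replicates of 72 h C2C12 myocytes were used. The labels' protocols name total RNA, adapter trimming and a size range labelled as below 30. The authors deposited raw read counts per microRNA gene, not normalized, with mm10 and GENCODE M21 per the deposited notes. For aligner and counter, the sources used here name none. The layout with 3 strand columns and 4 entries for unassigned reads is that of a STAR gene count table, so counts were read as uniquely mapped reads. The 4 entries (50.6% and 46.5% of reads) stayed out of totals and tests. Sense counts were used, and 2202 of 2202 identifiers matched M21.

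CPM were computed over assigned sense counts (7581366 and 9865298). Detection required 10 counts in each library. Shares carry exact Clopper-Pearson 95% intervals. The replicates were compared by exact binomial tests (scipy 1.17.1), adjusted by Benjamini-Hochberg at 0.05. The test was tried on simulated counts with counting error only. That cannot show how it behaves on libraries that also vary otherwise. With 1 group, no edgeR contrast was possible. edgeR 4.0.16 gave TMM factors and the coefficient of variation, DESeq2 1.42.0 size factors.

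Members, lists and tests were chosen with earlier results of these data known. Named are the members, the 2 genes nearest in level to each, host and neighbouring genes, other genes with a member's seed, Mir206, hairpins sharing 20 bases, and up to 4 list examples. Gene pairs with an identical mature sequence were named after their values were seen. Alternatives covered scaling, strand, minimum counts, pseudocounts, hairpin length, denominators, summed copies and each replicate left out.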

Additional observations from a re-analysis of the deposited data

How the results depend on the processing

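Of 85 alternative values, 79 were labelled the same, by a rule that differed with the kind of value. Shares, levels and ratios of members had to stay within the SD of the replicates. Comparisons between replicates had to keep their direction and their side of the threshold, and their size was not checked. Numbers of genes or hairpins had to stay within 1.5 times. The other 6 moved and none was labelled reversed, a label looked for only in the comparisons between replicates. Part of this tally was fixed in advance. With 2 replicates, leaving 1 out always stays within their SD. The either-strand ratios of members and the log2 ratios under other minimum counts reuse the same counts. The family's share was 0.282% of all reads and 0.884% of assigned counts without Mir206, both by construction of the denominator, and 0.465% to 0.641% with 1 replicate left out. Mir29b-1 stood at 7.14 CPM in the either-strand counts, whose totals are smaller. A pseudocount of 10 CPM lowered the log2 ratios that involve a Mir29b gene, to 8.34 for Mir29a over Mir29b-1, 3.38 for Mir29c over Mir29b-2 and 0.24 for Mir29b-2 over Mir29b-1. The number of genes called different was 166 to 227, against 209 of 314 tested as reported. The settings were TMM factors, DESeq2 size factors, minimums of 1 and 100, either-strand counts and, added after the data were seen, summed copies. The share called changed with the minimum, with 227 of 555 genes tested at 1 and 166 of 187 at 100. Mir29a and Mir29c passed in each of these settings. The Mir29b genes passed in none, with adjusted p from 0.0732 to 1 in the exact binomial test. A minimum of 100 left both out, and leaving out a replicate leaves no comparison of replicates. Counts of 47 to 103 limit the precision for the Mir29b genes.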
